A study of Mus musculus with 6 samples.

Results

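Sense intronic lncRNAs outside mRNA loci are transcripts of the deposited lncRNA table whose assembled locus holds no mRNA and whose start and end both lie inside an mRNA on the same strand. Of the 25974 lncRNA transcripts listed, 7395 met that description, and 7150 of them had at least 0.5 FPKM (fragments scaled to transcript length and library size) in at least 3 of the 6 mice and are the members described here. They make up 7150 of the 23640 lncRNA transcripts that pass the same level. Each member was given a host, the gene symbol of the shortest mRNA that contains it, and 2876 symbols serve as hosts. The table gives the ends of a transcript and not its exons, so a member lies inside the host gene but may touch a host exon, and the name intronic was not checked further.

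RNA-sequencing had been done on the prefrontal cortex (PFC) of 3 RSD mice and 3 control mice. RSD mice were male C57BL/6 mice of 6 to 8 weeks that met an aggressive CD-1 male in their home cage on repeated nights (repeated social defeat, RSD). Control mice were of the same strain and age and had no such contact. Tissue was taken directly after a behavioural test on an elevated maze. C57BL/6 mice are a common inbred strain, and the defeat paradigm is used as a model of anxiety-like behaviour after social stress. Residents lived and were exposed in cage groups, and the labels do not say which mice shared a cage, so p-values measure the spread between these 6 libraries.

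Most of a long neuronal gene is intron, and intron RNA is cut out, often while the gene is still being read, and degraded. Libraries depleted of ribosomal RNA and primed at random, as here, retain such unspliced RNA beside spliced mRNA, whereas libraries selected for poly(A) tails lose most of it. A long intron caught during transcription is covered more densely at its upstream end than at its downstream end, because every polymerase on the intron has passed its start and only some have reached its end. Introns also hold RNA with a life of its own, such as small nucleolar RNAs (snoRNAs, which guide chemical changes of ribosomal RNA), small Cajal body RNAs, microRNAs and lncRNAs with a separate start. FPKM of a sense intronic transcript counts both kinds, which cannot be told apart in these tables.

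Sequence was at hand for 2 kinds of intronic product. Of the microRNA hairpins with a sequence in the RefSeq table used (GRCm38.p6), that of miR-873a was the single one found whole inside members on their own strand. It sits in Lingo2, the host of the 1 member called lower in RSD mice further on. Its mature forms are shown because they identify a known processed RNA inside 2 members, MERGE.30589.3 and MERGE.30589.1, with the seed (bases 2 to 8) in capitals. The forms from each arm lie on the minus strand at chr4:36668556-36668576 (5p) and chr4:36668520-36668540 (3p).
mmu-miR-873a-5p: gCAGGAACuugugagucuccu
mmu-miR-873a-3p: gAGACUGAcaaguucccggga
Start sites were found in few members as well. Only 3 members held the start window of another RefSeq gene on their strand, in the hosts Rora, Hibadh and Fnip2, and 7 held that of their own host. The window printed here is that of 9530091C08Rik, a noncoding gene inside the Rora member MERGE.46452.1, since that member was the most abundant of the 3. It lies on the plus strand at chr9:68765096-68765395 of GRCm38.p6, and the capitals mark the 50 bases from the annotated start onwards.
9530091C08Rik: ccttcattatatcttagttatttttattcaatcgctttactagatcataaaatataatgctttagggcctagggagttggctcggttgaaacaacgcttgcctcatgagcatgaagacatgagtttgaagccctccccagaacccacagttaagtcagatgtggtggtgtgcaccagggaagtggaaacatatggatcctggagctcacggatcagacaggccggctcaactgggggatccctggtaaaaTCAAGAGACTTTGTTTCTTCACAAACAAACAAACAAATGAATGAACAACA
Of 300 bases, 43.3% were G or C and 5 positions were CpG. Both strands of the window were searched for motifs of promoters. The letters TATAAA, bound by the TATA-binding protein, were absent here and present in 13.6% of 32851 RefSeq windows of that length. A GC box, searched as GGGCGG, was absent as well and is held by 35.7% of windows. The cAMP response element, searched as TGACGTCA, was also absent and is held by 1.79% of windows.

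The members were short beside their hosts. Their span had a median of 2204 bp, between 202 and 371355 bp, against a median host span of 83511 bp, and 384 members spanned more than 10 kb. Most carried NONCODE identifiers (6568), 581 were assembled by the authors, and 1 had an Ensembl identifier. For 6571 members the locus held no other transcript, whereas 579 shared theirs with further isoforms. Within the host, midpoints were spread over the whole length but denser upstream, with 1934 members in the first 20% of the host, 1604, 1376 and 1255 in the next stretches of 20%, and 981 in the last. Their levels followed the same order in part. The median FPKM was 1.77 in the first stretch, 1.60, 1.49 and 1.43 in the following ones and 1.46 in the last.

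The typical member lay well below its host. Over all members the mean FPKM of the 6 mice had a median of 1.57 and a 5th to 95th percentile of 0.568 to 5.02, and 34 members exceeded 10. Hosts, as the sum of FPKM over the mRNA transcripts of the symbol, had a median of 8.28. The median member reached 17.6% of its host, and on the log2 scale, with 0.1 FPKM added to both, the ratio was −2.43, with a 5th to 95th percentile of −4.69 to 0.28. Only 459 members (6.42%) lay above their host. Both values are per length of transcript. For comparison, the 4414 filtered lncRNAs that lie in an mRNA on the same strand but belong to an mRNA locus had a median of 29.1% of the host and were above it in 22.7% of cases, a difference that was not tested. When the host was taken as the containing mRNA transcripts only, the median log2 ratio of members was −1.78.

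Abundant hosts had somewhat more abundant members. Across the 7150 members, the mean log2 level of the member and of the host had a Pearson correlation of 0.32 and a Spearman rank correlation of 0.33, given as a description, since members share libraries and hosts. The plot of member against host level shows a wide cloud around that relation.

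**Figure D1:**
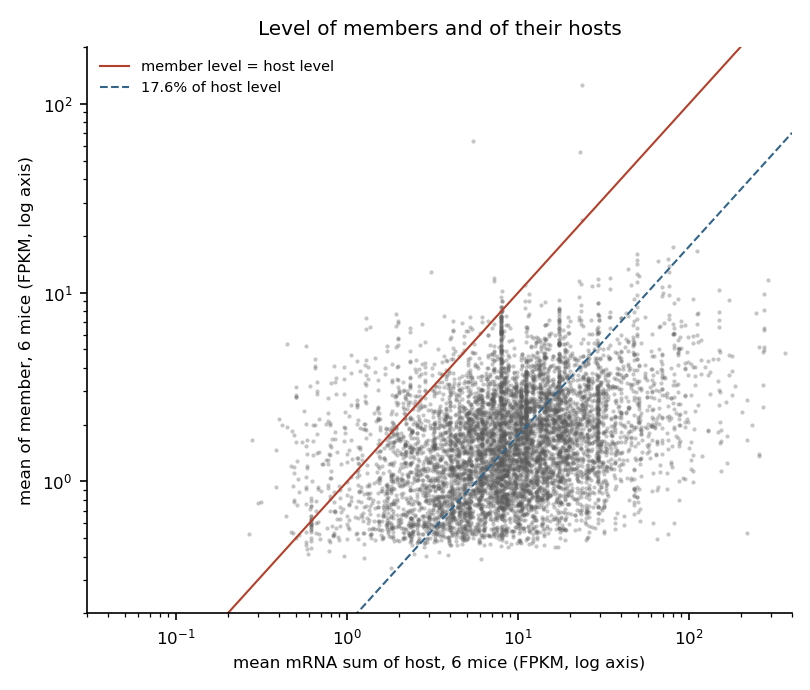
Mean FPKM over 6 mice of each of the 7150 members against the mean mRNA sum of its host, both on log axes, with members of 1 host in a vertical line. Most points lie under the red line of equal level and around the dashed line at 17.6% of the host.

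The lowest ratios lay in hosts with very high sums and the highest in hosts listed at or near 0. Prkar1b, a regulatory subunit of protein kinase A, had a sum of 224, 227 and 214 FPKM in RSD mice and 293, 144 and 199 in control mice, while its member NONMMUT055001.2 had 0.48, 0.34 and 0.59 against 0.46, 0.62 and 0.69, a median of 0.29% of the host. Members in Rtn1 (a reticulon of the endoplasmic reticulum), Nsf (the ATPase that takes SNARE complexes apart) and Map2k1 (a kinase of the ERK cascade) had between 0.58% and 0.79%. At the other end stood NONMMUT056679.2 in Cntnap2, a neurexin-like adhesion protein, with 6.44, 5.46 and 6.46 FPKM in RSD mice and 5.0, 7.84 and 8.36 in control mice. The Cntnap2 mRNA sum was listed at 0, 4.44 and 3.70 in RSD mice and at 0 in every control mouse, so that its ratio has no stable base. A second Cntnap2 member and 3 in Unc5d, a netrin receptor, made up the rest of the highest ratios, and Unc5d sums were likewise 0.0034, 1.45 and 1.54 FPKM in RSD mice and 0.0031, 0.018 and 0.0072 in control mice. A listed 0 is not evidence that a gene was silent: for Slc17a7, which loads glutamate into vesicles of cortical excitatory cells, the tables give 327, 331 and 311 FPKM in RSD mice and 311, 0 and 0.0055 in control mice.

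Among the most abundant members were several that span a small structured RNA. NONMMUT001904.2, 272 bp within the autophagy gene Atg16l1 (chromosome 1, 87776938 to 87777209 as deposited), covers the guide RNA gene Gm25395 and had 104, 87.7 and 91.4 FPKM in RSD mice and 248, 121 and 98.6 in control mice. NONMMUT043439.2 in Kpna4, an importin, covers the guide RNA Gm22009 and had 49.8, 41.0 and 58.8 against 132, 54.6 and 42.9. NONMMUT040235.2 in the sorting nexin gene Snx5 covers Snord17 and had 46.8, 30.6 and 35.9 against 135, 44.4 and 39.8. In each of them control replicate 1 stood highest and the groups overlapped. The same held for the Atg16l1 member over Scarna6 (20.2, 22.3 and 16.6 against 42.8, 20.9 and 22.3), the Slc25a3 member over the snoRNA Gm24119 (10.7, 12.5 and 14.0 against 29.8, 12.4 and 10.8) and, chosen after its values were seen, NONMMUT071385.2 in Rpsa over the snoRNA Gm26448 (9.03, 7.41 and 6.56 against 20.8, 8.69 and 7.00). These are all 6 members of 350 bp or less among the 36 that span a RefSeq small RNA gene. That overlap was taken by position alone, and the strand of the small RNA gene was not compared. None passed the test between groups, with adjusted p between 0.937 and 0.942 (limma).

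The other highly expressed members were ordinary stretches of neuronal genes. MERGE.11151.2 in Phactr1, a regulator of actin and of protein phosphatase, had 17.2, 17.0 and 19.4 FPKM in RSD mice and 13.7, 18.4 and 19.1 in control mice. NONMMUT036698.2 in Dnm1, the dynamin of synaptic vesicle endocytosis, had 16.3, 15.7 and 19.8 against 12.3, 19.7 and 16.5. NONMMUT007262.2 in Syt1, the calcium sensor of vesicle release, had 14.9, 12.1 and 15.3 against 11.7, 22.6 and 19.3. Here control replicate 1 was the lowest mouse each time, the reverse of the small RNA members, and the groups overlapped.

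That order of mice ran through the whole set. Control replicate 1 was the lowest of the 6 mice for 3708 members (51.9%) and control replicate 2 the highest for 3091 (43.2%). The median member level was 1.44, 1.42 and 1.65 FPKM in RSD mice and 1.22, 1.87 and 1.74 in control mice, so the controls formed both ends and the RSD mice lay between them. Summed over members the FPKM was 13557, 13271 and 15264 in RSD mice and 11894, 17536 and 16389 in control mice. As a share of the host the median was 15.9%, 15.9% and 18.2% against 13.2%, 21.1% and 19.9%. Host sums ran the opposite way over the controls, with medians of 8.29, 8.19 and 8.23 FPKM in RSD mice and 8.46, 7.89 and 7.96 in control mice. The difference between the groups in summed member FPKM, −0.12 as the log2 ratio of means, was smaller than the spread within a group (0.30, the larger SD on the log2 scale).

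**Figure D2:**
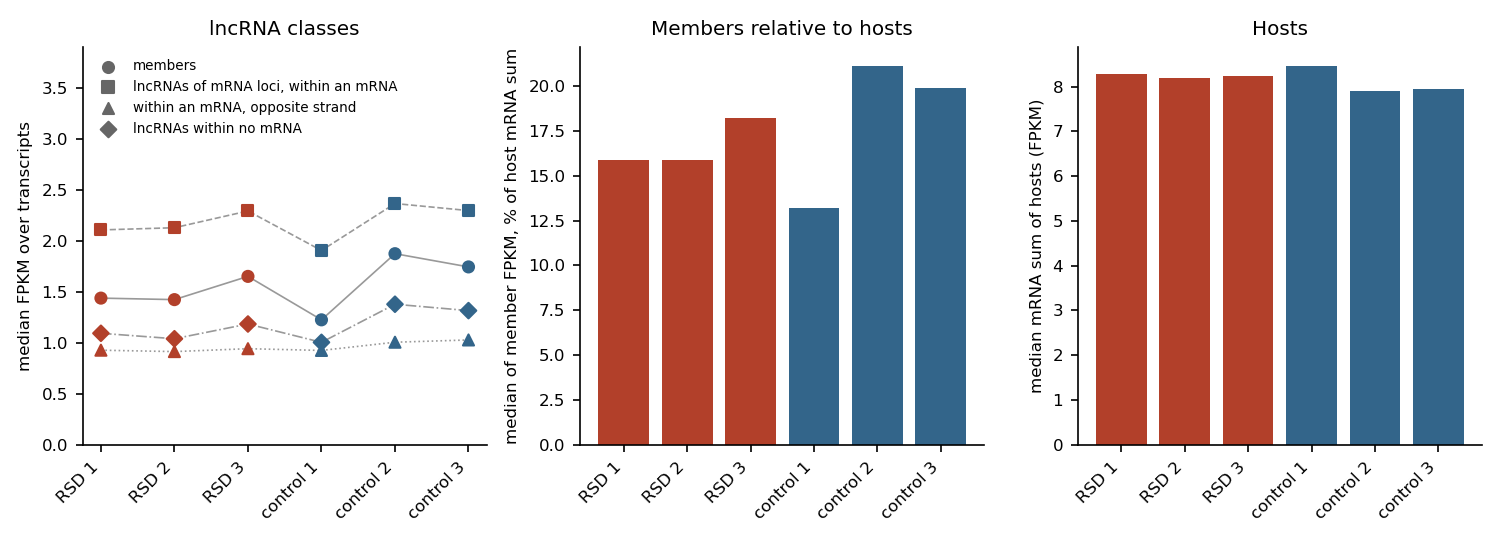
Per mouse, RSD in red and control in blue: median FPKM of 4 classes of lncRNA (left), median of member FPKM as a percent of the host (middle), and median mRNA sum of the hosts (right, FPKM). Control replicate 1 is lowest and control replicate 2 highest for members (1.22 and 1.87 FPKM), while host medians stay between 7.89 and 8.46.

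Other classes showed the order to a different extent. lncRNAs of mRNA loci inside an mRNA had medians of 2.11, 2.13 and 2.29 FPKM in RSD mice and 1.90, 2.36 and 2.30 in control mice, and those within no mRNA had 1.09, 1.04 and 1.18 against 1.0, 1.38 and 1.31. The 291 lncRNAs that lie in an mRNA on the opposite strand varied least, at 0.93, 0.91 and 0.94 against 0.92, 1.0 and 1.03. The class differences in this spread were not tested. Mitochondrially encoded mRNA had the same order as the members among the controls but not among the RSD mice, with sums of 11464, 10450 and 10020 FPKM in RSD mice and 8808, 12326 and 11536 in control mice, and its part in the order of the mice was not tested. Depth relative to control replicate 1 was estimated from the most frequent FPKM ratio among lncRNA transcripts of low level. It was 0.906 to 0.967 in RSD mice and 0.857 to 1 in control mice. That ratio was held by only 12 transcripts in each RSD mouse and by 8 in control replicates 2 and 3. The absolute depth is unknown.

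The tissue label was checked by marker mRNA. All 10 excitatory neuron markers were measured, with a summed FPKM of 500 to 688 in RSD mice and 134 to 576 in control mice, and of 189 to 361 against 134 to 265 without Slc17a7, so that the controls richest in members were the poorest in these markers. The part of cell composition in the member levels was not tested. Interneuron markers summed to 146 to 207 against 119 to 178 FPKM, astrocyte markers to 588 to 662 against 408 to 680, oligodendrocyte markers to 250 to 303 against 145 to 237, and microglial markers to 77.5 to 110 against 79.2 to 106. Oligodendrocyte precursor markers gave 35.9 to 49.9 against 30.4 to 38.7, endothelial 30.7 to 35.8 against 32.7 to 57.3, mural and meningeal 21.6 to 28.9 against 26.2 to 34.8, blood 144 to 265 against 108 to 250, and striatal 39.0 to 43.3 against 26.2 to 50.1. None of the 6 choroid plexus genes reached the filter, Drd2 and Adora2a of the striatal list and Eomes, Doc2g, Tbx21 and Th of the olfactory bulb list were at 0 or not listed, and the olfactory sum was 3.15 to 3.83 against 3.11 to 5.83 FPKM. In such bulk tissue, fewer cells of a type and less RNA per cell cannot be told apart.

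Hosts differed widely in their number of members. Of the 2876 hosts, 1543 had 1 member, while 74 had at least 10 and together held 1404 of the 7150 members. Those 74 spanned 70.23 to 2270.72 kb, with a median of 617.6 kb. Lsamp, an adhesion protein of the IgLON family, had 130 members, followed by B3galt1 (a galactosyltransferase) with 84, Nav3 (a neuron navigator that binds microtubules) with 83, Pde4d (a cAMP phosphodiesterase) with 40 and Zbtb20 (a zinc finger repressor) with 34. Members of 1 host share a transcription unit and are not independent of each other.

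Along Lsamp the level fell over the first 300 kb from the host 5′ end and varied beyond. The median of members was 6.75 FPKM within the first 100 kb (30 members), 5.23 between 100 and 200 kb (45) and 2.77 between 200 and 300 kb (17). It was higher again, 3.96, between 500 and 600 kb (8 members), 1.53 between 600 and 700 kb (25), and 7.02 for the single member between 1500 and 1600 kb. Between 1700 and 1800 kb the median was 4.30 (3 members), and the single member between 1800 and 1900 kb had 2.79. Thus high and low levels alternated along the gene, and the farthest stretches rest on few members. B3galt1 declined once, with medians of 3.23 FPKM in the first 100 kb (33 members), 2.31 in the second (14), 1.99 in the third (16), 1.94 in the fourth (13) and 1.90 in the last (8).

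Nav3 had a second rise inside the gene. Its members had a median of 3.98 FPKM in the first 100 kb (40 members) and 3.43 in the second (20), against 7.15 between 300 and 400 kb (7) and 6.98 between 400 and 500 kb (11). In Pde4d the 5 members nearest to the 5′ end averaged 0.75 FPKM and the 5 farthest 3.23, and in Zbtb20 the levels were low throughout, 0.49 to 1.65. Pearson r between distance and level was −0.41 in Lsamp, −0.60 in B3galt1, 0.18 in Nav3, 0.50 in Pde4d and 0.48 in Zbtb20, so hosts differed in the direction as well as the size of the slope.

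**Figure D3:**
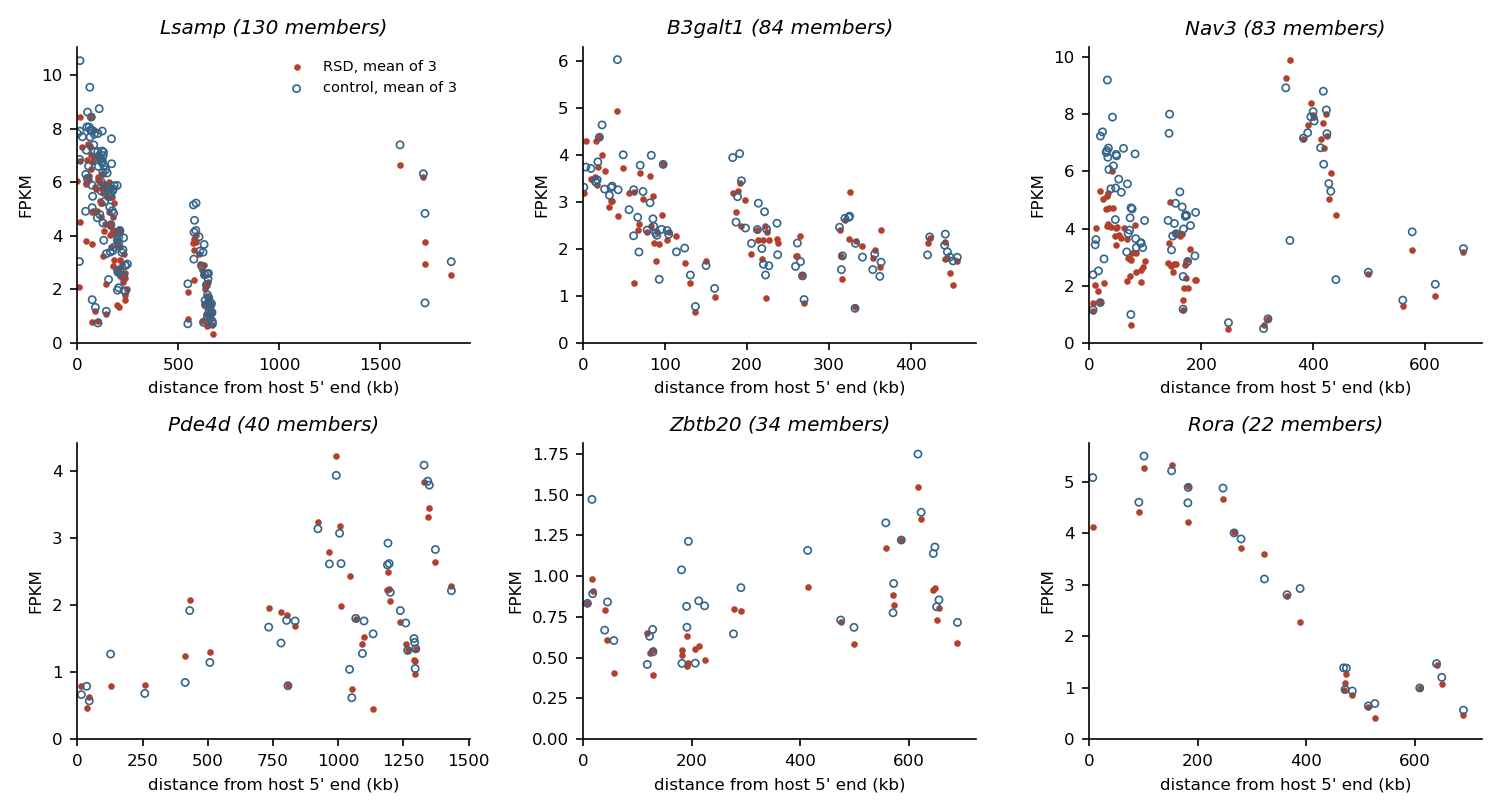
FPKM of each member, as the mean of 3 RSD mice (filled red) and of 3 control mice (open blue), against its distance in kb from the 5′ end of the host, for the 5 hosts with the most members and for Rora. Levels decline from 5′ to 3′ in Rora, B3galt1 and in separate stretches of Lsamp, and both groups trace the same shape.

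Over the 74 hosts with at least 10 members, r was below 0 in 53, below −0.5 in 26 and above 0.5 in 8, with a median of −0.26. The next 3 hosts were picked after their values were seen. In Rora, a nuclear receptor, r was −0.93 over 22 members, with a mean of 4.90 FPKM for the 5 nearest and 0.93 for the 5 farthest, and in Efna5, an ephrin, −0.94 over 15, with 3.09 and 0.79. In Ank2, an ankyrin, the slope was opposite, 0.88 over 19 members, with 0.91 FPKM near the 5′ end and 6.33 at the far end. These coefficients describe members that share a gene and libraries, and no test was made.

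The lists of hosts differed in level and ratio. Of the adhesion molecules listed, 75 were hosts and carried 634 members with a median of 2.49 FPKM and a log2 ratio to the host of −1.92. The list of signaling enzymes and scaffolds had 64 hosts, 450 members, 2.09 FPKM and a lower ratio, −3.02. Ion channels and receptors had 63 hosts with 246 members (2.18 FPKM, ratio −2.25), and RNA-binding proteins 32 hosts with 98 members (2.54 FPKM, ratio −2.11). The most abundant member of each list was NONMMUT064756.2 in Csmd1 (10.6, 10.8 and 13.9 FPKM in RSD mice, 7.20, 15.9 and 13.7 in control mice), NONMMUT026388.2 in Kalrn, a guanine exchange factor of dendritic spines (10.7, 9.89 and 11.4 against 7.42, 16.8 and 17.0), MERGE.292.2 in the potassium channel Kcnq5 (6.67, 6.34 and 7.15 against 5.01, 10.3 and 9.05) and NONMMUT035513.2 in the splicing regulator Celf2 (12.6, 11.6 and 13.9 against 8.53, 17.9 and 15.5). Control replicate 1 was the lowest mouse in all of them. None of the 20 immediate early genes listed was a host.

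Between RSD and control mice few members differed. The values were compared as log2(FPKM + 0.1) with limma across all 23640 lncRNA transcripts, with Benjamini-Hochberg adjustment over all of them. At an adjusted p under 0.05, 1 member was higher and 1 lower in RSD mice, against 0.0465% and 0.055% of all lncRNAs tested. Each of these members passed the filter through 1 group alone, which limits what its p-value shows. At the threshold of the study (at least 1 log2 unit in either direction and an unadjusted p no greater than 0.05), 19 members were upregulated and 29 downregulated (0.266% and 0.406%), against 1.07% and 1.37% of all lncRNAs. The share among members was thus below that of the table in both directions. Median scaling turned the split to 27 upregulated and 19 downregulated (0.378% and 0.266%, against 1.18% and 0.935% of all lncRNAs). All RSD mice lay above all controls for 161 members (2.25%, against 3.49% of all) and below them for 447 (6.25%, against 7.49%). The median log2 fold change over members was −0.08, against −0.09 over all lncRNAs, and median scaling turned both to 0.01 and 0.0039, so no direction is given for the set.

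Control replicate 1 weighed on these counts. Without it 17 members were upregulated and 59 downregulated at the threshold of the study, the median was −0.26, and 944 members (13.2%) were lower at an unadjusted p of at most 0.05, against 164 (2.29%) with it, where all lncRNAs had 11.5% and 3.46%. Above the controls at that p lay 58 members with all mice (0.811%, against 1.81% of all lncRNAs). By the threshold of the study, all lncRNAs without this mouse had 1.61% and 1.77%. Median scaling gave 228 members above and 173 below at that p with all mice (3.19% and 2.42%, against 3.55% and 3.05% of all lncRNAs). Without control replicate 1 it gave 230 and 306 (3.22% and 4.28%, against 6.1% and 3.85% of all lncRNAs). Thus median scaling turned the excess of lower members with all mice. Without control replicate 1 that excess shrank but remained. With both changes 36 and 19 members met the threshold of the study (0.503% and 0.266%, against 2.26% and 0.77% of all). Without RSD replicate 3 the counts were 12 and 51, without control replicate 2 they were 36 and 21, and without control replicate 3 they were 34 and 23. For these settings the shares of all lncRNAs are not given. The median log2 fold changes over members were −0.14, 0.03 and −0.01 in that order, against −0.13, 0.01 and −0.03 over all lncRNAs.

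MERGE.30595.2, a 10576 bp transcript in Lingo2 (chromosome 4, minus strand, 36853371 to 36863946 as deposited), was the downregulated member. Lingo2 encodes a transmembrane protein with leucine-rich repeats and an immunoglobulin domain. The member was listed at 0.0064, 0 and 0 FPKM in RSD mice and at 1.81, 2.63 and 2.69 in control mice, and the groups did not overlap (adjusted p = 0.0125, with no fold given because of the listed 0). It passed the filter through the control mice alone. It is the single transcript of its locus. The Lingo2 mRNA sum was 7.19, 5.48 and 9.53 FPKM in RSD mice and 7.50, 9.36 and 13.5 in control mice (log2 fold change −0.44, SE 0.29, adjusted p = 0.652), and the ratio to the host passed as well (lower, adjusted p = 0.0128). Of the 14 members in Lingo2 the level of 2 had an unadjusted p of at most 0.05, and their summed FPKM was 28.71, 25.01 and 33.58 in RSD mice and 29.6, 41.4 and 40.5 in control mice. The adjusted p of the level was 0.717 with a pseudocount of 0.01, 0.665 with a filter of 1 FPKM and between 0.054 and 0.159 without any 1 of the control mice.

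The 2 members over miR-873a show how FPKM is divided among overlapping isoforms. MERGE.30589.3 had 4.39, 0 and 4.03 FPKM in RSD mice and 0, 5.26 and 5.78 in control mice, and MERGE.30589.1 had 1.66, 0.78 and 2.00 against 4.01, 2.55 and 1.54. Summed over the 3 transcripts of the locus the values were 6.58, 2.08 and 8.16 against 5.76, 8.65 and 8.91, so that the 0 of control replicate 1 was offset by the other isoforms and that of RSD replicate 2 was not.

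MERGE.29971.2, which spans 25113 bp of Negr1 (chromosome 3, plus strand, 156929006 to 156954118), was the upregulated member. Negr1, like Lsamp, is an adhesion protein of the IgLON family. The member was listed at 1.90, 1.52 and 2.39 FPKM in RSD mice and at 0 in each control mouse (adjusted p = 0.0196). It passed the filter through the RSD mice alone. The other transcript of the locus had 2.86, 3.01 and 2.51 against 2.88, 3.62 and 4.15, and the locus sum was 4.75, 4.53 and 4.90 against 2.88, 3.62 and 4.15 (log2 fold change 0.42, SE 0.21, adjusted p = 0.899). The call was thus of the isoform and not of the locus, and it was lost without any 1 of the RSD mice (adjusted p 0.202 to 0.313). For the Negr1 mRNA the values were scattered, with 3.70, 4.06 and 22.7 FPKM in RSD mice and 21.1, 20.2 and 4.44 in control mice.

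Further members with a small p shared their locus with other isoforms. Those named here also passed the filter through the RSD mice alone. NONMMUT068776.2 in Arhgef12, a guanine exchange factor, had 0.72, 0.98 and 1.14 FPKM in RSD mice and was listed at 0 in every control mouse (adjusted p = 0.237). The paper also reports this transcript as upregulated in RSD mice by quantitative PCR. The other isoform had 0.82, 1.16 and 1.70 against 1.02, 1.08 and 1.58, and the locus sum was 1.54, 2.14 and 2.84 against 1.02, 1.08 and 1.58 (log2 fold change 0.76, SE 0.29, adjusted p = 0.877). MERGE.19004.1 in Pacsin1, which bends membranes during endocytosis, had 0.62, 1.78 and 2.92 against 0, 0.00058 and 0, with a locus sum of 4.27, 4.32 and 5.10 against 2.96, 4.41 and 4.42. When all lncRNA transcripts were summed by locus, 0 loci with members rose and 1 fell, that of MERGE.30595.2, against 0.0317% of all 18943 loci in each direction. Of 6852 loci with members 17 and 28 met the threshold of the study, against 0.813% and 1.34% of all loci. Among members alone in their locus 38 of 6571 (0.578%) met it, against 1.73% of the 579 that share a locus.

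The next members by p were single transcripts, and none passed the adjustment. NONMMUT069084.2 in Sik2, a salt-inducible kinase, had 3.14, 3.13 and 3.38 FPKM in RSD mice and 1.47, 1.39 and 1.01 in control mice (log2 fold change 1.26, SE 0.21, adjusted p = 0.292). NONMMUT016537.2 in Elmo1, a partner of Dock proteins in Rac activation, had 1.68, 1.39 and 2.02 against 0.51, 0.62 and 0.75, and NONMMUT067437.2 in Gse1 had 2.34, 2.16 and 2.36 against 1.30, 1.12 and 1.23. For these 3 the groups did not overlap, whereas the host mRNA sums of all 3 did.

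In the other direction the smallest p after Lingo2 was that of NONMMUT019242.2 in Pde4d, with 0.30, 0.52 and 0.50 FPKM in RSD mice and 1.74, 1.87 and 1.1 in control mice (log2 fold change −1.62, SE 0.31, adjusted p = 0.446). NONMMUT011322.2 in Ypel2 had 1.99, 1.59 and 1.76 against 3.17, 3.18 and 3.36, while the Ypel2 mRNA sum was 10.4, 10.7 and 10.5 against 10.6, 10.4 and 10.4. That host was nearly constant over the 6 mice. NONMMUT082622.1 in Nav3 had 1.53, 1.82 and 2.38 against 3.57, 4.54 and 3.86, NONMMUT074650.2 in Gemin8, a subunit of the SMN complex, 0.36, 0.35 and 0.51 against 1.06, 1.59 and 0.93, and NONMMUT033110.2 in Zbtb7c 0.39, 0.32 and 0.71 against 1.18, 1.71 and 1.37.

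In some hosts most members had the same sign. In Nav3, 67 of 83 had a negative log2 fold change, with a median of −0.33, 12 had an unadjusted p of at most 0.05 (all lncRNAs 1.81% above and 3.46% below) and 11 lay lower in every RSD mouse than in every control mouse (all lncRNAs 7.49%). A negative sign was found for 80.7% of Nav3 members, or 73.5% after median scaling, against 62.5% of all members and 60.8% of all lncRNAs. The median Nav3 member was at 3.58, 2.89 and 3.81 FPKM in RSD mice and 3.11, 5.64 and 5.16 in control mice. In Cntn5, a contactin, chosen after its values were seen, 25 of 26 were negative (median −0.44), with medians of 1.63, 1.41 and 1.49 FPKM against 1.53, 2.77 and 2.38. Cacna1e, a voltage-gated calcium channel and likewise picked afterwards, went the other way, with 22 of 25 above 0 (median 0.38) and medians of 1.56, 1.48 and 1.91 against 0.88, 1.80 and 1.52. Control replicate 1 was below the other controls in all 3 hosts, and none of their members passed the adjustment.

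**Figure D4:**
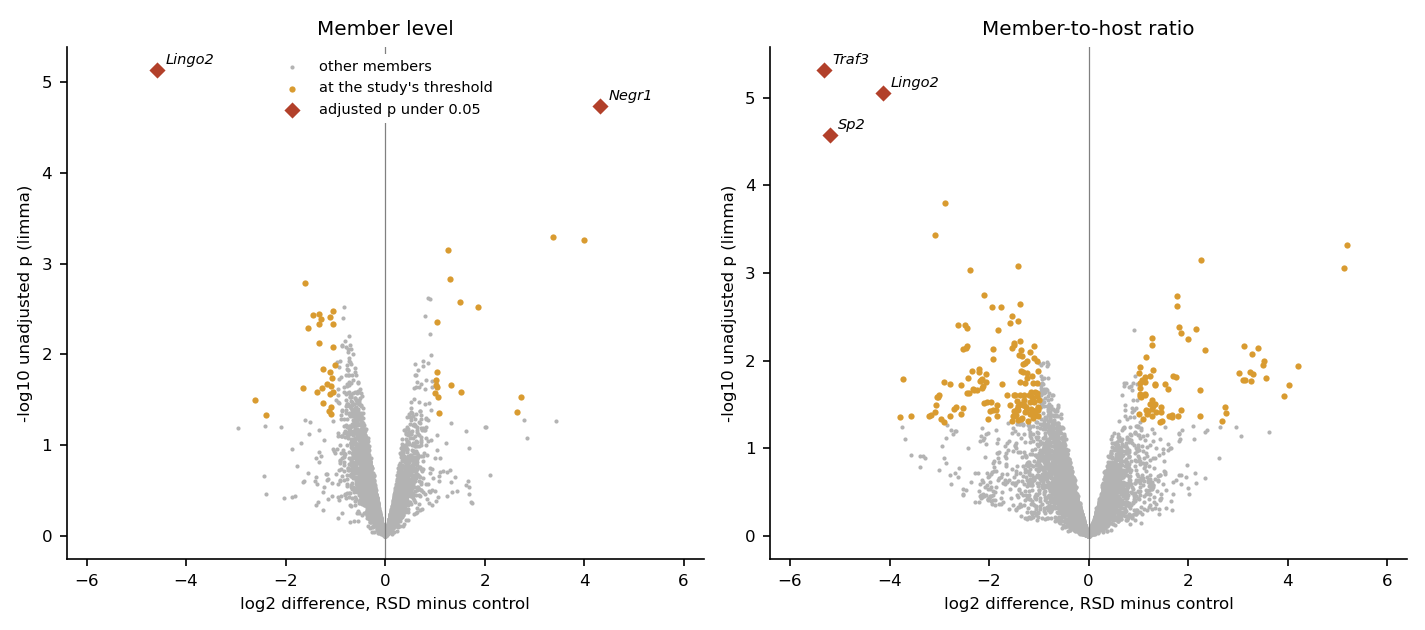
Each member by its log2 difference, RSD minus control, and −log10 of the unadjusted limma p, for the level (left) and for the ratio to the host (right). Red diamonds mark the members with an adjusted p under 0.05 with their hosts, 2 in the level and 3 in the ratio, and orange points meet the threshold of the study.

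To compare members with their hosts, the log2 ratio of member to host sum, each plus 0.1 FPKM, was fitted in the same way over the 11564 filtered lncRNAs that lie within an mRNA on the same strand. By limma, 0 members had a higher ratio and 3 a lower one in RSD mice at an adjusted p under 0.05, against 0.0346% and 0.0692% of all ratios. At an unadjusted p of 0.05 or less, 98 ratios were above and 229 below (1.37% and 3.2%, against 1.88% and 3.1% of all). With the threshold of the study, 74 were higher and 143 lower (1.03% and 2.0%, against 1.58% and 2.2% of all), and groups did not overlap for 200 and 500 members (2.8% and 6.99%, against 3.48% and 6.49%). The median log2 difference was −0.09 over members and −0.07 over all ratios, whereas median scaling of both tables gave 0.08 and 0.10. With that scaling 115 members were higher and 87 lower (1.62% and 1.23%, against 2.17% and 1.54% of all). Since scaling turns the sign of the median, no direction of the ratio is given for the set. Without control replicate 1, 63 were higher and 346 lower (0.881% and 4.84%, against 1.78% and 4.81% of all). At an unadjusted p of 0.05 or less, 725 were below (10.1%, against 8.85% of all). Median scaling without that mouse turned the split to 134 higher and 115 lower (1.89% and 1.62%, against 3.27% and 2.01% of all). At that p it gave 325 above and 202 below (4.58% and 2.85%, against 5.76% and 2.95% of all). With all mice it gave 265 and 160 (3.74% and 2.26%, against 3.99% and 2.3% of all). Without control replicate 2 alone the counts at the threshold of the study were 115 and 112. The share of all ratios is not given there, and the median log2 difference was 0.03 over members and 0.03 over all ratios.

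In 2 of the 3 called ratios the host passed its own test and the member did not. These host sums reached the filter through the RSD mice alone, which limits what their p-values show. NONMMUT015953.2 in Traf3, an adaptor of tumor necrosis factor receptors, had 0.93, 0.98 and 1.28 FPKM in RSD mice and 0.88, 1.07 and 1.06 in control mice (log2 fold change 0.07, SE 0.22). The Traf3 mRNA sum was 3.26, 4.71 and 4.45 FPKM in RSD mice and was listed at 0 in every control mouse (adjusted p = 0.0027), and the ratio had an adjusted p of 0.00932. Sp2, a transcription factor of the Sp family, repeated this with a sum of 2.38, 2.61 and 1.64 against 0 in every control mouse (adjusted p = 0.0122), while its member NONMMUT011773.2 had 0.37, 0.42 and 0.62 against 0.72, 0.68 and 1.07 (ratio adjusted p = 0.0278). The third called ratio was that of the Lingo2 member MERGE.30595.2, where the member and not the host differed. Leaving out 1 mouse could end each of the 3 calls, with a highest adjusted p of 0.091 for Traf3, 0.157 for Sp2 and 0.0739 for Lingo2.

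In Cadps2 and Gtf2i the host sums were above 0 in every mouse and did not overlap between groups, although neither passed the adjustment. The Cadps2 sum (an activator of dense-core vesicle release) was 19.2, 16.8 and 18.3 FPKM in RSD mice and 1.18, 2.76 and 5.65 in control mice, a difference of 2.72 on the log2 scale (SE 0.53, adjusted p = 0.427). Its members NONMMUT055961.2 and NONMMUT055962.2 had 0.65, 0.37 and 0.69 against 0.37, 0.70 and 0.96, and 0.78, 0.69 and 0.85 against 0.79, 1.13 and 1.21, with adjusted p of the ratio of 0.102 and 0.167, or 0.0235 and 0.0204 when only the containing transcripts were counted as host. For Gtf2i, a general transcription factor, the sum was 37.4, 49.5 and 47.9 against 16.0, 23.6 and 21.1, and its member NONMMUT054772.2 had 3.22, 3.48 and 3.99 against 3.9, 4.93 and 4.09. Member values of both hosts overlapped between the groups.

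In Ptk2 and Ano6 the host sums lay lower in every RSD mouse, again without passing the adjustment. Ptk2, the focal adhesion kinase, summed to 1.32, 1.51 and 1.32 FPKM in RSD mice and 7.45, 4.29 and 4.81 in control mice (log2 fold change −1.88, SE 0.24, adjusted p = 0.147), while its member NONMMUT023883.2 had 3.01, 3.69 and 4.06 against 2.85, 2.34 and 3.04. Ano6, a phospholipid scramblase, summed to 1.14, 0.70 and 1.57 against 3.98, 4.37 and 5.08. Its members NONMMUT024783.2 and NONMMUT024789.2 had 0.78, 0.75 and 0.94 against 0.59, 1.11 and 1.23, and 2.36, 1.24 and 1.70 against 1.15, 2.21 and 2.60. Acss2, an acetyl-CoA synthetase, had a sum of 4.43, 5.02 and 4.81 FPKM in RSD mice and 6.19, 5.48 and 5.46 in control mice. Its member NONMMUT040674.2 lay on the other side, with 1.39, 0.86 and 0.96 FPKM in RSD mice against 0.24, 0.41 and 0.28 (log2 fold change 1.51, SE 0.32, adjusted p = 0.575).

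**Figure D5:**
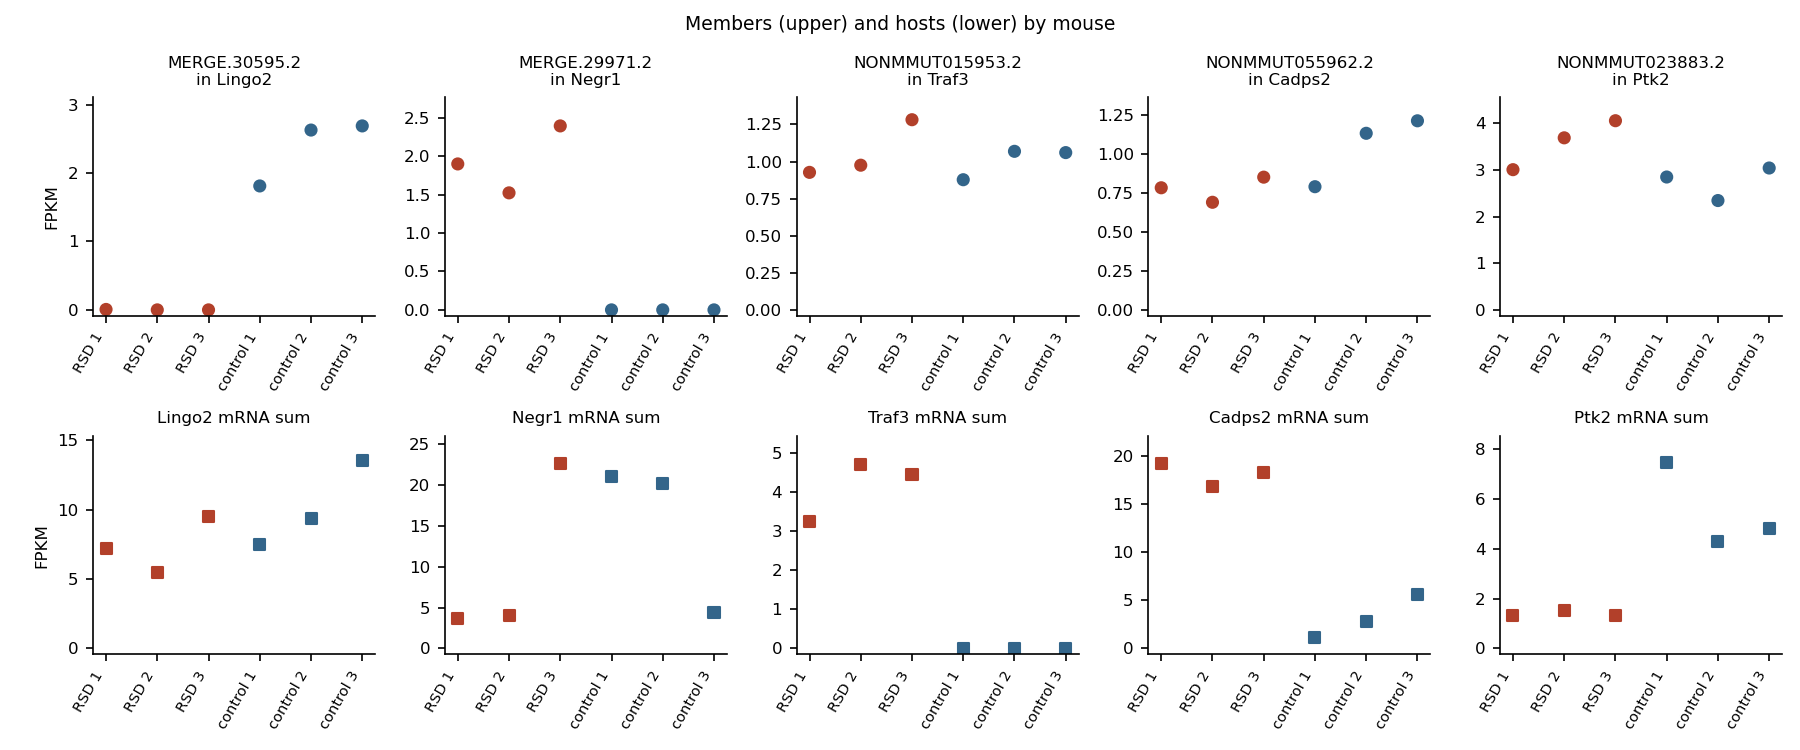
FPKM by mouse of 5 members (upper row) and of the mRNA sums of their hosts (lower row), RSD in red and control in blue. The groups separate in the member for Lingo2 and Negr1 and in the host for Traf3, Cadps2 and Ptk2.

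Over all hosts, 2 of 2850 tested mRNA sums were higher and 0 lower in RSD mice at an adjusted p under 0.05 in limma. The 2 were Traf3 and Sp2. The shares were 0.0702% and 0.0%, against 0.057% and 0.0163% of 12277 genes. At an unadjusted p of 0.05 or less, 146 lay above and 93 below (5.12% and 3.26%, against 6.21% and 2.74% of genes). Every RSD mouse was above every control mouse for 254 sums and below for 227 (8.91% and 7.96%, against 9.39% and 6.66% of genes). At the threshold of the study, 39 hosts were upregulated and 18 downregulated (1.37% and 0.632%, against 1.85% and 0.57% of genes). Immediate early genes, which carry no members, met that threshold upward in 10 of 20 cases, with sums of 265, 312 and 227 FPKM in RSD mice and 123, 89.6 and 101 in control mice. None of the 20 had an adjusted p under 0.05 in limma, and that list was written with earlier results of these data known. In Homer1, an activity-regulated synaptic scaffold chosen after its values were seen, the member NONMMUT018657.2 had 11.3, 13.0 and 12.3 FPKM against 4.36, 10.4 and 12.8, and the mRNA sum was 76.5, 77.9 and 88.2 against 27.6, 68.1 and 77.9. Control replicate 1 was the lowest mouse in both.

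The lists of hosts gave few calls. Of the 634 members in adhesion molecules, 3 lay above and 3 below by the threshold of the study, with a median log2 fold change of −0.13, and both members called in the level belong to that list, which was written with earlier results of these data known. The 450 in signaling genes had 2 and 1 (median −0.04), and the 246 in channels and receptors and the 98 in RNA-binding proteins had 0 in either direction (medians −0.08 and −0.06). By that threshold all lncRNAs had 1.07% above and 1.37% below. Without a fold limit, at an unadjusted p of 0.05 or less in limma, 4 members lay above and 15 below in the adhesion list, 4 and 9 in the signaling list, 7 and 8 in the channels and receptors and 0 and 2 in the RNA-binding proteins, where all lncRNAs had 1.81% above and 3.46% below.

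The filter has no gap at its edge. The 3 members with the lowest third-highest value, in Agbl4, Fam126a and Me1, had 0.501 FPKM there to 3 digits, and the 3 nearest candidates left out, in Gabrb1, Rreb1 and Cntln, had 0.499.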

How the data were processed

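Strand-specific libraries without ribosomal RNA had been prepared from the PFC of 3 RSD and 3 control mice. The deposited tables hold FPKM values that the authors computed per transcript with the Cufflinks suite, 1 column per mouse and divided among isoforms by that software. They also hold the authors' fold changes and p-values, which were not used. Submitters' notes name Bowtie 0.12.2 and mm9, but 99.9% of 31440 mRNA rows with a RefSeq symbol overlap that gene on GRCm38, so positions are given as deposited. No counts were used and depth was estimated only as a ratio.

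Containment was taken from the deposited ends. Transcripts with at least 0.5 FPKM in 3 mice were fitted with limma 3.58.1 (R 4.3.3, trend) on log2(FPKM + 0.1), all 6 mice, no covariates, with Benjamini-Hochberg adjustment over each whole table. The FPKM of a host is the sum over its symbol. A count test could not be used on FPKM. The fits were tested on simulated data. Alternatives were pseudocounts of 0.01 and 1, no filter, a limit of 1 FPKM, a fit with no trend, scaling to the median, quantile normalization, a replicate block, each mouse left out, other definitions of the host, and a joint fit with mRNA. A sum by locus and median scaling without control replicate 1 and members alone in their locus were chosen after seeing the data. Members named are those past an adjusted p of 0.05, up to 6 by smallest p per direction and fit, the 8 most abundant, the 5 highest and 5 lowest ratios, the 5 hosts with most members, 3 on each side of the filter and the most abundant of each host list; others are marked as chosen afterwards. Members, lists and rules were chosen with earlier results of these data known.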

Additional observations from a re-analysis of the deposited data

How the results depend on the processing

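Counts of members called were small and moved with the settings. For the level of members, the 2 calls at an adjusted p under 0.05 became 0 with a filter of 1 FPKM, 0 with a pseudocount of 0.01 and 0 with a replicate block, and 1 with median scaling without control replicate 1, 1 with sums by locus and 1 among members alone in their locus, and leaving out 1 mouse gave 1 to 4. By the threshold of the study, the 19 higher members became 11 with the filter of 1 FPKM, 4 with a pseudocount of 1, 36 with median scaling without control replicate 1, and 12 to 36 when 1 mouse was left out. The 29 lower ones became 14, 1 and 19 under those settings in the same order, 19 with median scaling alone and 21 to 59 with 1 mouse left out.

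For the ratio to the host, the 3 calls became 5 with only the containing transcripts as host, 10 with median scaling without control replicate 1, 1 with a pseudocount of 1, 0 with the replicate block and 0 to 10 with 1 mouse left out. The 74 higher ratios became 115 with median scaling, 116 with quantile normalization, 134 with median scaling without control replicate 1 and 55 to 115 with 1 mouse left out, and the 143 lower ones became 87, 84 (median scaling and quantile normalization) and 97 to 346 with 1 mouse left out. For host sums, the 2 calls became 0 with the replicate block and 0 to 14 with 1 mouse left out, the 39 higher became 30 to 83 and the 18 lower 18 to 30. The median log2 ratio of members to hosts was −1.78 with containing transcripts only. None of the 24 results followed across the settings changed direction. The direction of the other named members was not followed. The causes were not tested.

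The labels do not say whether replicate numbers pair the mice. Same-numbered RSD and control mice had correlations of their deviations from the group means of 0.06, −0.05 and 0.079. With 3 mice in each group these values cannot decide whether the numbers pair the mice. The replicate block ended 5 of 24 named results, those of Negr1, Lingo2 (level and ratio), Sp2 and Traf3. Their adjusted p in limma was then 0.309, 0.217, 0.164, 0.194 and 0.194. Low levels divided among isoforms, an unknown depth and 3 mice in each group limit single members the most.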
